A study of Mus musculus with 15 samples.

Results

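The comparison described here sets AM-14 B cells whose antigen receptor was crosslinked with anti-IgM against AM-14 B cells kept in media. Its members are the arrays titled for anti-IgM treatment and for media alone, 3 of each, which are 6 of the 15 arrays of the series, and every gene of the deposited table that passed a filter on low signals (13159 genes). AM-14 B cells are mouse B cells that carry a transgenic receptor with rheumatoid factor activity, so that most cells share a single specificity, for self IgG. The anti-IgM cells received goat F(ab')2 fragments against mouse IgM, which crosslink the receptor without an Fc part, and the media cells received no agent. Cells given a CpG oligodeoxynucleotide that engages TLR9, and cells given PL2-3, labelled as chromatin immune complexes, are used only where the response to anti-IgM is set against another stimulus. The remaining group, labelled with anti-IgM and CpG together, entered the fit for its share in the estimate of the spread. Replicates 1 and 2 of each group were labelled with the Enzo kit and replicate 3 with the Ambion kit. Strain, age and tissue of origin, doses and times of stimulation are not stated in the labels, nor is it said whether replicates came from separate animals or cultures. The p-values therefore measure the spread between arrays, which may be technical.

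The B cell receptor signals through its Cd79 chains to the kinases Lyn and Syk, and from there along several routes: calcium with calcineurin and NFAT, Ras with ERK, and PI3K with AKT, beside the NF-kB route. Resting B cells are small, held quiescent in part by FoxO factors, and kept in place by G protein-coupled receptors. Stimulated cells grow before they divide, which needs amino acids, nucleotides, translation and protein folding. Receptor signals without help from T cells or Toll-like receptors are known for incomplete activation of B cells.

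Values are the authors' probe set signals, a linear intensity without a unit. The 3 signals of a group are listed in the order of replicates 1, 2 and 3, so the last of them is always the Ambion array. Changes are differences of log2(signal + 75.1), anti-IgM minus media, with the standard error (SE) from limma and n = 3 arrays per group. This scale understates changes of genes whose signals approach 75.1. The words rose and fell are kept for genes with a limma p, adjusted over all 13159 genes, under 0.05.

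Array medians lay between 279 and 468 with anti-IgM and between 412 and 514 in media. Across genes, 2 anti-IgM arrays correlated at 0.919 or more, 2 media arrays at 0.899 or more, and an anti-IgM with a media array at 0.854 to 0.921. Media replicate 3 stood apart from the other media arrays in its marker signals. The 5'/3' signal ratio of the beta-actin control probe sets was 0.335 and 0.747 on the Enzo arrays with anti-IgM and 0.135 on the Ambion one, against 0.445, 0.440 and 0.153 in media. For Gapdh the ratio was 0.469, 0.989 and 0.339 with anti-IgM, against 0.523, 0.573 and 0.138 in media. The anti-IgM+CpG arrays labelled with the Enzo kit had actin ratios of 0.105 and 0.193, near those of the Ambion arrays. Without this group 3185 genes were called in place of 2561.

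Markers of B cells were bright on all 6 arrays, with Cd79a between 13300 and 80259 and Ms4a1, which encodes CD20, between 16822 and 41562. Of 9 B cell markers tested, 6 fell and 3 were not called, and their summed signal was 175600 to 215000 with anti-IgM against 310600 to 490100 in media. With arrays shifted to the same median 3 of the 9 fell, and 5 did with quantile normalization. Of the markers of other cells, the neutrophil gene S100a8 averaged 27561 with anti-IgM and 56077 in media, and the erythroid gene Alas2 24834 with anti-IgM and 47569 in media. Neither was called (limma adjusted p = 0.405 and 0.0998), and media replicate 3 was the brightest array of both, at 89505 and 65766. Summed signals of 18 tested myeloid markers were 79670, 130400 and 87210 with anti-IgM, against 164500, 166900 and 295900 in media, and 5 of the 18 fell, 1 of them without media replicate 3. Erythroid markers, 1 of 4 lower, summed to 44080, 64180 and 36120 with anti-IgM, against 79320, 75270 and 141200 in media. Plasma cell markers (6 tested, Irf4 higher and Mzb1 lower) summed to 98090, 81130 and 76050 with anti-IgM, against 95250, 89640 and 200600 in media. Media replicate 3 thus had the highest summed signal of these 3 lists, and without it neither the erythroid fall nor that of Mzb1 was called. T cell markers summed to 5539 to 8711 with anti-IgM and 9563 to 10550 in media (3 of 10 fell), and NK cell markers to 3128 to 7772 with anti-IgM and 9193 to 11750 in media (2 of 8 fell). Without media replicate 3 the T cell falls were no longer called and 1 NK cell fall was, and quantile normalization and the median shift ended the T cell calls too. Fewer cells of a type and less RNA per cell cannot be told apart in such bulk samples, and the part of other cells in the changes of other genes was not tested.

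**Figure D1:**
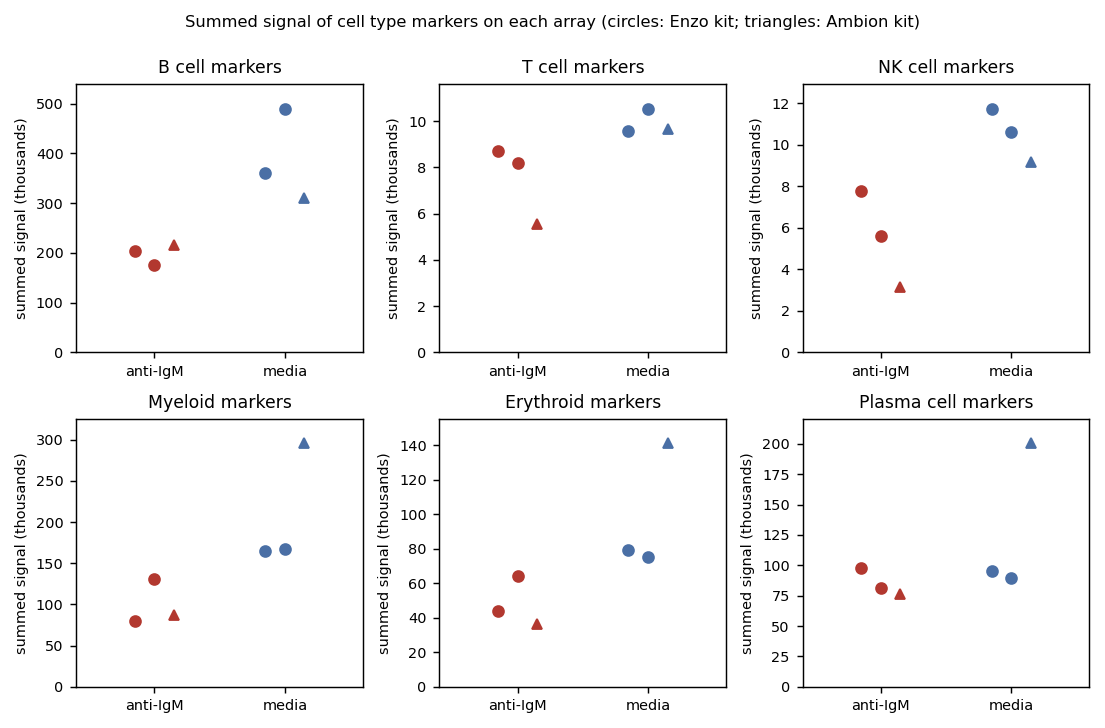
Summed signal (linear axes from 0) of the tested markers of 6 cell types on each of the 3 anti-IgM arrays (red) and the 3 media arrays (blue), with circles for the Enzo and triangles for the Ambion kit. The B cell sums do not overlap between groups, and the media Ambion array is the highest for myeloid (295900), erythroid (141200) and plasma cell (200600) markers.

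Of the 13159 genes tested, 2561 were called (19.5%), 1335 higher with anti-IgM (10.1%) and 1226 lower (9.32%). Past a 2-fold change, 497 were higher and 661 lower. Among the called genes, the difference had the same sign within the Enzo arrays and within the Ambion pair for 2557, or 99.8%, against 68.5% of all genes tested. The fit on the Enzo arrays alone called 1427 genes, and the single Ambion pair allows no test. The 2 groups' signals did not overlap for 2372 of the called genes, where 30.8% of all genes tested did not overlap. The calls were made on these same arrays, so neither the shared sign nor this count tests whether a change repeats across kits. The median change of all genes was -0.13 with the deposited scaling and 0.12 after arrays were shifted to the same median, so list medians below are to be read against -0.13. That shift also moved the split of the called genes, from 52.1% higher to 77.1% higher (1637 higher, 12.4% of all genes, and 486 lower, 3.69%). Without media replicate 3 there were 1651 calls, and without anti-IgM replicate 3 there were 1655.

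Several of the largest rises were in genes outside the immediate early programme. The chemokine gene Xcl1, whose product attracts cross-presenting dendritic cells, had signals of 11709, 14906 and 14302 with anti-IgM, against 655, 673 and 456 in media. Bex1, known from neurons, had 17383, 14659 and 11690 with anti-IgM, against 1071, 841 and 662 in media. The lowest anti-IgM array of both genes was more than 10 times as bright as the highest media array. Il15ra, the receptor chain that presents interleukin 15, had 2684, 1783 and 2122 with anti-IgM, against 103, 539 and 62.5 in media. Its change was 3.18 ± 0.41 (adjusted p = 9.73e-05), although another probe set of the gene gave 0.33. Lmnb2, which encodes the nuclear lamin B2, had 1279, 1175 and 2043 with anti-IgM, against 155, 135 and 128 in media. Here too the groups were far apart, at 2.84 ± 0.24 (adjusted p = 4.38e-06) on this probe set and 0.77 on another. Ak7, an adenylate kinase known from cilia, had 10085, 7889 and 9299 with anti-IgM, against 1719, 1642 and 927 in media, a change of 2.65 ± 0.22.

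Windows of 250 bases before the start of transcription of 3 of these genes and of Haao, the gene with the largest fall, are printed to show what the promoters of the most changed genes hold, 5′ to 3′ on the strand of the gene, from RefSeq (GRCm38.p6). Capitals mark matches to any of 7 short motifs, looked for on both strands: TGANTCA (AP-1), GGAAAA (the core of NFAT sites), the NF-kB motif, CACGTG (E-box), GTAAACA (FoxO), the ISRE motif and CCGGAAG (ETS). The NF-kB motif was used in a loose form, GGG and CC with the bases between them free, so a match need not be an NF-kB site. The windows are chr1:164935523-164935772 (minus strand) for Xcl1, chrX:136215514-136215763 (minus strand) for Bex1, chr2:11705043-11705292 (plus strand) for Il15ra, 1 of 2 listed for it, and chr17:83846791-83847040 (minus strand) for Haao.
Xcl1: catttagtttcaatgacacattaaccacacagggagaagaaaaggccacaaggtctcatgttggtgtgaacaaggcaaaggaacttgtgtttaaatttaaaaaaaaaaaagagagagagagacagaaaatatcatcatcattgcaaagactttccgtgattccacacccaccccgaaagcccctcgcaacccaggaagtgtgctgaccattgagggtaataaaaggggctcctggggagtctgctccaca
Bex1: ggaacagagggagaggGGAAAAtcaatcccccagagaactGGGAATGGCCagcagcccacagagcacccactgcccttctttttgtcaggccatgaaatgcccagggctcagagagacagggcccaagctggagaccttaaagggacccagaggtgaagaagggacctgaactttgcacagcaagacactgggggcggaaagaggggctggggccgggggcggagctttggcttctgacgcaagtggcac
Il15ra: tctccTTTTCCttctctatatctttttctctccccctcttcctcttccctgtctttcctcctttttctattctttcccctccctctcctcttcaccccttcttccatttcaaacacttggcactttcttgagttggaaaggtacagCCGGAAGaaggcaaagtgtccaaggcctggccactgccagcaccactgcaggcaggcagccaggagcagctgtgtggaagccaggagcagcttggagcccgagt
Haao: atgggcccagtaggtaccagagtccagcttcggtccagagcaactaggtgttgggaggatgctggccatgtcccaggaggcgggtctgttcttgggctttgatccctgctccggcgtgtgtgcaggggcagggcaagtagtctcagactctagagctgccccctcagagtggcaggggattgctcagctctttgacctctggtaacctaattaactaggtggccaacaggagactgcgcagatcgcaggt
Bex1 holds the NFAT core and the loose NF-kB motif, and Il15ra the NFAT core and the ETS letters, while Xcl1 and Haao hold none of the 7. Over the 20 largest rises, 18 had a window, and the NFAT core stood in 22.2% of them, against 11.8% of 17 windows of the 20 largest falls and 18.8% of 10576 tested genes with a window. The loose NF-kB motif stood in 61.1%, 64.7% and 60% of the same 3 sets, and the AP-1 letters in 5.56% of the rises and 4.89% of all tested genes. These shares lie near those of all tested genes, and a match is a description of the letters only.

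Mir155hg, the host transcript of the microRNA miR-155, had signals of 3211, 6196 and 1529 with anti-IgM, against 805, 840 and 48.5 in media. Within the Enzo arrays the change was 2.34 and within the Ambion pair 3.70, since the media Ambion array was far below the other media arrays. The arrays measured the host transcript and not the mature microRNAs, which act on messages through their seed, bases 2 to 8. The 2 mature sequences are shown, with the seed in capitals, because a rise of the host bears on which messages could be bound. They lie on the plus strand at chr16:84714143-84714165 and chr16:84714182-84714202 (RefSeq, GRCm38.p6), and their seeds differ.
mmu-miR-155-5p: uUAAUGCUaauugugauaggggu
mmu-miR-155-3p: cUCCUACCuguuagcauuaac

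Transporters, receptors and enzymes made up much of the remaining rises. Fam83g, a scaffold gene, had 2406, 2142 and 2169 with anti-IgM, against 780, 123 and 138 in media, a change of 2.81 ± 0.39 (0.88 on another probe set). Slc5a6, which encodes the sodium-driven transporter of biotin and pantothenate, had 1535, 1196 and 604 with anti-IgM, against 321, 68.7 and 54.8 in media, a change of 2.52 ± 0.56. In each of these genes media replicate 1 was the brightest media array and still below all anti-IgM arrays. Pmp22, a membrane protein gene best known from myelin, had 12466, 12874 and 11081 with anti-IgM, against 2315, 2586 and 1495 in media (2.50 ± 0.22). Fzd9, a receptor for Wnt proteins, had 1617, 933 and 1165 with anti-IgM, against 114, 187 and 208 in media (2.41 ± 0.25). Bcat1, the cytosolic enzyme that starts the breakdown of branched-chain amino acids, had 6038, 4865 and 7279 with anti-IgM, against 806, 949 and 1759 in media (2.36 ± 0.20). All 3 genes were separated by more than a doubling between the groups. Crabp2, which binds retinoic acid, was more variable, at 853, 289 and 1505 with anti-IgM, against 51.6, 75.2 and 107 in media (2.42 ± 0.47). Gfi1, a zinc finger repressor of blood cell development, had 4314, 3752 and 3346 with anti-IgM, against 897, 731 and 583 in media (2.27 ± 0.23). The small Maf factor Maff had 3181, 4256 and 1730 with anti-IgM, against 922, 1106 and 80.8 in media, and media replicate 3 set much of its size (1.79 in the Enzo arrays and 3.53 in the Ambion pair). Of the 20 largest rises, 16 were larger in the Ambion pair than in the Enzo arrays.

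**Figure D2:**
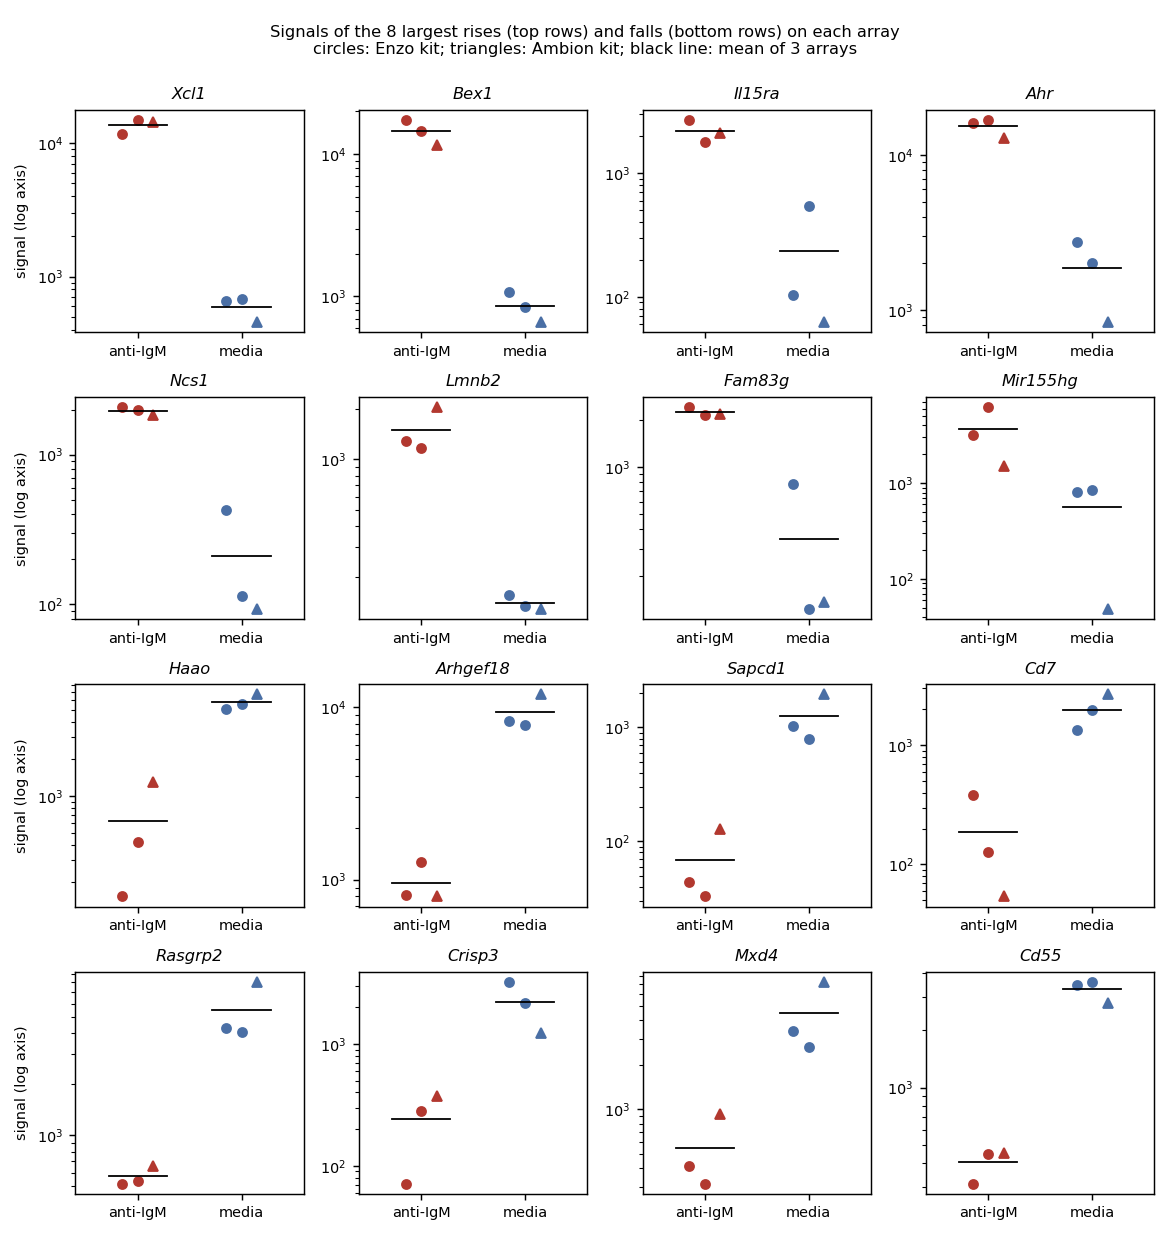
Signals (log axes) of the 8 largest rises, in the upper rows, and the 8 largest falls, in the lower rows, on each anti-IgM array (red) and each media array (blue), with circles for the Enzo kit, triangles for the Ambion kit and a line at the mean of 3 arrays. In none of the 16 panels do the groups overlap, and the media Ambion array (48.5) lies far below the other media arrays for Mir155hg.

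The largest falls were in genes for surface proteins, signalling and metabolism. Sapcd1 had 44.1, 32.8 and 128 with anti-IgM, against 1024, 790 and 1949 in media (-3.18 ± 0.48, adjusted p = 0.000311). Cd55, which protects cells from complement, had 313, 448 and 454 with anti-IgM, against 3436, 3592 and 2786 in media (-2.81 ± 0.33, adjusted p = 5.58e-05). Mxd4, an antagonist of Myc that binds Max, had 414, 316 and 929 with anti-IgM, against 3401, 2653 and 7275 in media, a change of -2.83 ± 0.59, with other probe sets at -2.68 and -0.48. Each anti-IgM array lay below each media array in all 3 genes. Siglecg, an inhibitory sialic acid receptor of B cells, had 1670, 1784 and 2696 with anti-IgM, against 11409, 13616 and 15033 in media (-2.68 ± 0.24). Cnr2, the cannabinoid receptor of lymphocytes, had 612, 899 and 508 with anti-IgM, against 6007, 4508 and 4541 in media (-2.79 ± 0.38). The adhesion receptor Cd2 had 756, 510 and 884 with anti-IgM, against 3300, 3796 and 6178 in media (-2.48 ± 0.29). In these 3 genes the brightest anti-IgM array was dimmer than the dimmest media array by more than 3 times. Crisp3, which encodes a secreted protein, had 71.3, 282 and 372 with anti-IgM, against 3255, 2191 and 1237 in media (-2.91 ± 0.48). B3gnt8, a glycosyltransferase gene, had 68.1, 129 and 168 with anti-IgM, against 1123, 756 and 1957 in media (-2.72 ± 0.52). Srpk3, a kinase gene known from muscle, had 873, 654 and 1862 with anti-IgM, against 5392, 3964 and 12399 in media (-2.56 ± 0.34). The Ambion arrays were the brightest of their groups for Sapcd1, Mxd4, B3gnt8 and Srpk3, and dimmer than the other media arrays for Crisp3. The summed myeloid, erythroid, T cell and NK cell markers were lower with anti-IgM as well, at the values given above, and their part in these falls was not tested.

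Set directly against CpG, by a contrast that shares the anti-IgM arrays with the contrast against media, 13 of the 40 genes named for their size differed, where 6.41% of all genes did. Of the 20 rises, 11 were higher with anti-IgM than with CpG and Lmnb2 was lower, against 3.84% higher and 2.57% lower of all genes. The difference of Lmnb2 was -0.83, and its call ended with the replicate block (adjusted p = 0.0597) and without any 1 of the anti-IgM or CpG arrays. Besides Xcl1 and Bex1, the 11 included Ak7 (1.65, adjusted p = 0.000139), Pmp22 (3.44, adjusted p = 9.04e-08), Gfi1 (2.46, adjusted p = 3.56e-06) and Rgs16 (3.61, adjusted p = 3.56e-06), and these calls held in every alternative fit run. The calls of Crabp2 (1.68) and Nr4a3 (1.39), also among the 11, ended in 13 and 12 of the alternatives. Others of the rises were not called, among them Il15ra (0.74), Slc5a6 (1.38) and Fzd9 (-0.10). Of the 20 falls, Rasa3 was the only one called against CpG, at -1.36 (adjusted p = 0.0152), and the call ended without anti-IgM replicate 1 (0.0846), anti-IgM replicate 2 (0.052), CpG replicate 1 (0.057) or CpG replicate 2 (0.0844). The other falls included differences near 0, such as -0.03 for Cnr2 and -0.05 for Sapcd1, with SE in the list between 0.24 for Siglecg and 0.67 for Haao. Against PL2-3, where 0.692% of all genes were called (0.35% higher and 0.342% lower), 2 of the 40 genes were, Pmp22 with a difference of 1.16 (adjusted p = 0.0178) and Bcat1 with one of -0.93 (adjusted p = 0.0463). Both calls ended when any 1 of the anti-IgM or PL2-3 arrays was left out, with adjusted p of up to 0.118 for Pmp22 and up to 0.251 for Bcat1.

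Genes that supply a growing cell rose in several steps of metabolism. Of 14 amino acid transporters, 5 rose and 9 were not called. The glutamine transporter Slc1a5 had 11396, 10238 and 21199 with anti-IgM, against 3840, 4344 and 6274 in media (1.51 ± 0.18, adjusted p = 5.49e-05). Slc7a6, which exchanges cationic for neutral amino acids, had 4247, 5231 and 5721 with anti-IgM, against 2395, 2292 and 1544 in media (1.27 ± 0.22, adjusted p = 0.000867). Both were higher on each anti-IgM array than on any media array. Slc7a5, the light chain of the large neutral amino acid transporter, rose by 0.86 ± 0.16, and Slc38a1, a glutamine carrier, by 0.80 ± 0.13. The level of Slc38a1 was higher than with CpG by 1.20 (adjusted p = 1.96e-05), and its call against media ended with probe sets averaged (0.58, adjusted p = 0.0533). The median of this list was 0.26, and 0.45 without media replicate 3.

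Purine and pyrimidine synthesis had 14 of 18 members measured that rose, 1 that fell and 3 not called, with a median of 0.88. Ctps, which makes CTP, had 18922, 15274 and 19596 with anti-IgM, against 6472, 8049 and 5099 in media (1.46 ± 0.17, adjusted p = 3.79e-05). The purine enzymes Pfas and Gart, which act in neighbouring steps, rose by 1.26 ± 0.21 and 1.24 ± 0.22, and Umps, which makes UMP, by 1.21 ± 0.17. Rrm2, the subunit of ribonucleotide reductase made in S phase, went the other way, at 5904, 5781 and 2001 with anti-IgM, against 12074, 10386 and 33881 in media (-1.96 ± 0.59, adjusted p = 0.0272). Media replicate 3 was by far the brightest array, and the call ended without it (-1.06, adjusted p = 0.204), without anti-IgM replicate 3 (-1.58, adjusted p = 0.149) and without anti-IgM replicate 1 (-2.13, adjusted p = 0.0515).

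One-carbon metabolism feeds both purine and thymidylate synthesis. Shmt1, the cytosolic serine hydroxymethyltransferase, had 6162, 6366 and 5315 with anti-IgM, against 1293, 1666 and 1011 in media (2.13 ± 0.18, adjusted p = 4.38e-06). All anti-IgM arrays lay more than 3 times above all media arrays. Psat1, of serine synthesis, had 10480, 11475 and 15819 with anti-IgM, against 3628, 3828 and 6931 in media (1.42 ± 0.22). The folate enzymes Mthfd1, of the cytosol, and Mthfd2, of mitochondria, rose by 1.40 ± 0.20 and 1.16 ± 0.20. In this list 5 of 11 members measured rose, and 5 were not called. Gldc, of the glycine cleavage system, fell (-1.80 ± 0.48), a call that ended without anti-IgM replicate 1 (adjusted p = 0.0667) or media replicate 1 (0.0729). In polyamine synthesis, Srm, spermidine synthase, had 39512, 34015 and 45033 with anti-IgM, against 13408, 13286 and 8345 in media (1.78 ± 0.19), and Odc1, the rate-limiting ornithine decarboxylase, rose by 0.91 ± 0.13. The list of 7 had a median of -0.18, which became 0.06 after the median shift.

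Genes of protein synthesis rose widely beyond the ribosome itself. Of 19 aminoacyl-tRNA synthetases, which charge tRNAs, 15 rose and 4 were not called, with a median of 0.79. Kars, for lysine, had 11833, 12608 and 19324 with anti-IgM, against 6942, 6431 and 6354 in media (1.11 ± 0.17, adjusted p = 0.000296). Yars, for tyrosine, had 4286, 4363 and 4479 with anti-IgM, against 2045, 2028 and 1893 in media (1.11 ± 0.15, adjusted p = 0.000151). Tars, for threonine, rose by 1.05 ± 0.16 and Eprs, for glutamate and proline, by 1.03 ± 0.18. The arrays of a group lay close together in Yars, and wider apart in Kars. Of 18 translation initiation factors, 12 rose and 6 were not called, with a median of 0.70. Eif4e, which binds the cap of messages, had 14400, 18745 and 15906 with anti-IgM, against 7357, 7575 and 4822 in media (1.32 ± 0.18, the lowest of 3 other probe sets at 0.13). Eif2b3, a subunit of the exchange factor that recharges eIF2, had 4492, 4147 and 4615 with anti-IgM, against 1719, 2121 and 1771 in media (1.21 ± 0.15). Against CpG these genes were not called, with differences of -0.37 for Kars, -0.08 for Yars, -0.28 for Eif4e and -0.48 for Eif2b3.

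Folding, degradation and transport of proteins moved with synthesis. Of 8 subunits of TRiC, the chaperonin that folds actin and tubulin, 5 rose and 3 were not called, with a median of 0.68. Cct6a had 51225, 49401 and 51094 with anti-IgM, against 27499, 26729 and 19394 in media (1.06 ± 0.13), and Tcp1 rose by 0.74 ± 0.13. Of 22 proteasome subunits, 14 rose and 8 were not called, with a median of 0.56, and 9 rose in a fit without the labelling term. The ATPase subunit Psmc4 had 13550, 13566 and 17244 with anti-IgM, against 8391, 8944 and 7906 in media (0.80 ± 0.13), a call that ended with probe sets averaged (0.52, adjusted p = 0.0537). Psmd12, of the lid, rose by 0.78 ± 0.14. Nuclear transport showed the same pattern, with 12 of 20 members measured higher and 8 not called. The import receptor Ipo5 had 19717, 23896 and 20006 with anti-IgM, against 11230, 9093 and 6478 in media (1.27 ± 0.17, other probe sets at 0.17 to 1.16). Ranbp1, which binds the GTPase Ran, had 50919, 45471 and 35692 with anti-IgM, against 22478, 27168 and 13801 in media (1.09 ± 0.18). Of 18 splicing and RNA-binding genes, 9 rose and 9 were not called, led by the arginine methyltransferase Prmt1 at 30284, 25961 and 21208 with anti-IgM, against 13315, 12622 and 5488 in media (1.38 ± 0.22).

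Import of proteins into mitochondria had a median of 0.97, with 13 of 17 members measured higher and 4 not called. Timm8a1, a chaperone of the space between the mitochondrial membranes, had 13038, 13686 and 20133 with anti-IgM, against 4695, 3822 and 3812 in media (1.89 ± 0.16, adjusted p = 4.89e-06). Timm17a, of the inner membrane translocase, had 11078, 8883 and 13437 with anti-IgM, against 4871, 3839 and 4823 in media (1.28 ± 0.15). Tomm40, the pore of the outer membrane, had 13636, 14931 and 14502 with anti-IgM, against 6531, 8167 and 3046 in media (1.38 ± 0.29), and 0.88 without media replicate 3. Genes of the citric acid cycle and respiration moved less, with 3 of 19 members measured higher, near the 10.1% of all genes, and a median of 0.19. Without anti-IgM replicate 1, anti-IgM replicate 3, media replicate 1 or media replicate 2, 1 of those 3 calls was left. Within the kits the import median was 0.80 (Enzo) and 1.44 (Ambion), and without media replicate 3 it was 0.76.

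**Figure D3:**
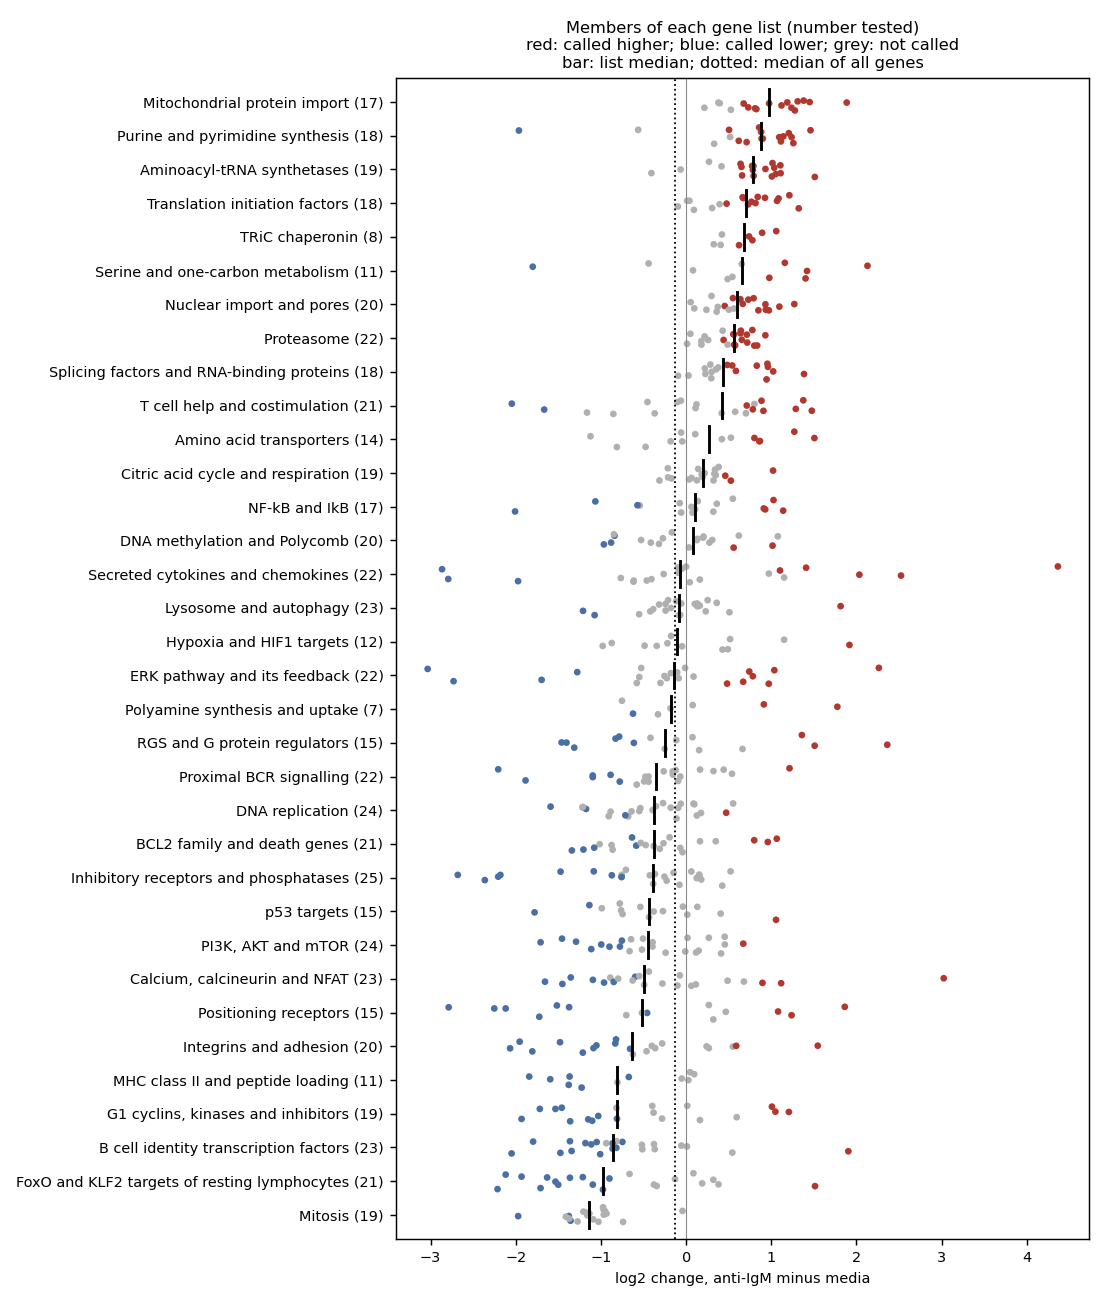
Log2 change, anti-IgM minus media, of each tested member of the gene lists, sorted by list median, with red for members called higher, blue for members called lower and grey for members not called. Most lists of supply and synthesis lie right of the median of all genes (-0.13, dotted), with mitochondrial protein import at 0.97, but polyamine synthesis lies left of it at -0.18, and mitosis (-1.14) lies lowest. The medians of the polyamine, ERK, cytokine, lysosome and hypoxia lists turn above 0 after the median shift, and quantile normalization turns those of cytokines, DNA methylation and hypoxia.

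The cell cycle lists held more falls than rises. Of 19 G1 cyclins, kinases and inhibitors, 3 rose, 9 fell and 7 were not called. This list mixes kinases with their inhibitors, and several of its falls were in inhibitors, so its counts give no direction for the cycle. Rbl2, of the retinoblastoma family, had a change of -1.93, a call that held in all 19 alternatives. E2f2, which is not an inhibitor in this list, fell too (-1.46), a call that ended in 5 of 19 alternatives. Cdkn2c, an inhibitor of the kinases Cdk4 and Cdk6, had 906, 1575 and 1030 with anti-IgM, against 2760, 2992 and 7256 in media (-1.72 ± 0.36, adjusted p = 0.00339). Cdkn1b, the inhibitor p27, had 2017, 3743 and 1867 with anti-IgM, against 5491, 5562 and 11956 in media (-1.53 ± 0.37), a call that ended without anti-IgM replicate 3 (-1.29, adjusted p = 0.0599) or media replicate 3 (-1.09, adjusted p = 0.0701). Media replicate 3 was the brightest array for both. Cdk6 had 23874, 13784 and 14299 with anti-IgM, against 10359, 9497 and 3812 in media (1.21 ± 0.28), and without media replicate 3 the change was 0.81 (adjusted p = 0.0526). Of the 9 falls, 5 were called without anti-IgM replicate 3 and 4 without media replicate 3, and the median of the list was -0.81 with and -0.22 without that media array. Of 19 mitosis genes, 3 fell, Kif20a, Aurkb and Bub1b, and none rose. These calls were 15.8% of the list, where 19.5% of all genes were called and 9.32% were lower. The median of the list was -1.14, with -0.48 in the Enzo arrays and -2.32 in the Ambion pair. The kinase gene Aurkb, for instance, had 513, 575 and 531 with anti-IgM, against 935, 1338 and 2775 in media (-1.38 ± 0.43, and -0.87 with an adjusted p of 0.226 without media replicate 3). The 3 mitosis calls ended without media replicate 3, where the median was -0.40, and they were also lost without anti-IgM replicate 1 or 2, with 1 left without anti-IgM replicate 3, while 12 of the 19 fell in the fit without the anti-IgM+CpG arrays. After the median shift and with the Enzo arrays alone none of the 19 fell, and 1 did with quantile normalization. In DNA replication 1 of 24 members measured rose, Pcna (0.47 ± 0.14), and 3 fell, Mcm7, Cdc6 and Pold1. Here 16.7% of members were called, under the 19.5% of all genes. The call of Pcna ended in 4 of the 6 fits with 1 array left out, with adjusted p of up to 0.137. All 3 falls lost their calls without media replicate 3, where the median of the list was -0.22 in place of -0.37, and after the median shift. Erythroid and plasma cell markers were also highest on media replicate 3, as given above, and their part in these values was not tested.

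Signalling genes moved in both directions along several routes. Of 22 genes of proximal receptor signalling, 1 rose, 6 fell and 15 were not called, and 3 fell after the median shift. The kinase Syk, which docks on the Cd79 chains, had 5670, 5816 and 9841 with anti-IgM, against 23830, 22373 and 31503 in media (-1.89 ± 0.26, adjusted p = 0.000159). The adaptor Bank1 had 4114, 4894 and 4955 with anti-IgM, against 18061, 20329 and 27774 in media (-2.21 ± 0.28, adjusted p = 8.48e-05). Each anti-IgM array of both genes lay far below any media array. Blnk, the linker to phospholipase C, fell by 0.89 ± 0.21 (not called after the median shift, adjusted p = 0.101), and the kinase Prkcb fell by 1.10 ± 0.17 on the log2 scale. Both were also lower with anti-IgM than with CpG, by differences of -1.18 (adjusted p = 0.00159) and -0.85 (adjusted p = 0.00527). Over the list, 8 of 22 members were higher than with CpG and 4 were lower, against 3.84% higher and 2.57% lower of all genes. The kinase Fyn had 32358, 30969 and 19904 with anti-IgM, against 18570, 19700 and 4296 in media (1.21 ± 0.33). Without media replicate 3 its change was 0.76 (adjusted p = 0.123), and without anti-IgM replicate 3 it was 1.05 (adjusted p = 0.0908). Fyn was higher than with CpG by 1.7, a call that ended in limma without the labelling term (adjusted p = 0.0906).

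Brakes of receptor signalling were among the lower genes. Of 25 inhibitory receptors and phosphatases, 8 fell and 17 were not called, and 5 fell after the median shift. Dgka, the kinase that consumes diacylglycerol, had 1434, 1529 and 1380 with anti-IgM, against 6495, 8560 and 8393 in media (-2.36 ± 0.32, adjusted p = 0.000144). The ubiquitin ligase Cblb, which restrains lymphocyte receptors, had 2588, 1943 and 2214 with anti-IgM, against 7690, 7750 and 4271 in media (-1.47 ± 0.21). The groups did not overlap in either gene, and Cblb was lower than with CpG too, by a difference of -1.85 (adjusted p = 2.58e-05). For Dgka that difference was -0.02 ± 0.32. Over the list, 7 of 25 members were higher than with CpG and 2 were lower, against 3.84% higher and 2.57% lower of all genes.

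In the Ras and ERK route 7 of 22 members measured rose, 4 fell and 11 were not called. Dusp4, a nuclear phosphatase that switches off ERK, had 12038, 16691 and 18224 with anti-IgM, against 3027, 3672 and 2817 in media (2.26 ± 0.19, adjusted p = 4.38e-06). It was higher than with CpG by 1.88 (adjusted p = 8.77e-06). The 4 falls were 3 exchange factors of the Rasgrp family and a GTPase-activating protein of Ras and Rap. Rasa3, that activating protein, had 1194, 1515 and 1414 with anti-IgM, against 10616, 10139 and 7987 in media (-2.73 ± 0.32). Rasgrp3 had 3194, 3127 and 10646 with anti-IgM, against 12750, 12832 and 23044 in media (-1.70 ± 0.34), and Rasgrp1 had 1394, 1615 and 1854 with anti-IgM, against 3619, 3230 and 5532 in media (-1.28 ± 0.20). Another probe set of Rasgrp1 gave -0.61, and with probe sets averaged the gene was not called (-0.42, adjusted p = 0.242). Rasa2, another activating protein of this family, rose instead, at 8431, 10621 and 7070 with anti-IgM, against 4637, 4056 and 3802 in media (1.04 ± 0.19). The count of rises was 2 without anti-IgM replicate 1, anti-IgM replicate 3 or media replicate 3, and 4 without anti-IgM replicate 2 or media replicate 2.

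Calcium signalling had 3 of 23 members measured higher and 7 lower, against 4 higher and 3 lower after the median shift. The calcium sensor Ncs1 had 2075, 1996 and 1837 with anti-IgM, against 425, 114 and 92.4 in media, and Orai1, the channel of store-operated entry, had 13292, 16556 and 10029 with anti-IgM, against 7988, 7633 and 3478 in media (1.12 ± 0.21). Itpr3, the channel that releases stored calcium, had 2523, 2767 and 3339 with anti-IgM, against 8366, 10337 and 8930 in media (-1.66 ± 0.28). Ppp3ca, the catalytic subunit of calcineurin, had 2377, 2107 and 3470 with anti-IgM, against 6409, 5398 and 8880 in media (-1.36 ± 0.18, adjusted p = 0.000121). So the plasma membrane channel rose, while the store channel and the phosphatase fell, and the groups overlapped in none of the 4. Ppp3ca was also lower than with CpG (-1.12, adjusted p = 0.000754). Over the list, 4 of 23 members were higher than with CpG and 2 were lower, against 3.84% higher and 2.57% lower of all genes.

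Genes of the PI3K route and of FoxO factors, which that route holds in check, were more often lower. In the PI3K list 1 of 24 members measured rose, a call that ended without anti-IgM replicate 3, media replicate 1 or media replicate 3. In the same list 8 fell and 15 were not called, with 5 falls without anti-IgM replicate 3 and 5 after the median shift. Foxo1 itself had 3229, 4428 and 4743 with anti-IgM, against 8817, 7757 and 10367 in media (-1.11 ± 0.17, adjusted p = 0.000388). Inpp5d, the lipid phosphatase SHIP1, had 6678, 7203 and 6782 with anti-IgM, against 13756, 12772 and 15009 in media (adjusted p = 0.00277), and it was higher than with CpG by 1.93 (adjusted p = 1.28e-05). Pik3cg fell by 1.46 ± 0.31 on the log2 scale. Of 21 known targets of FoxO and KLF2 in resting lymphocytes, 12 fell, 1 rose and 8 were not called, with a median of -0.98, and 11 fell after the median shift. Without media replicate 3, 8 of them fell. The cyclin-like gene Ccng2 had 1546, 1565 and 1557 with anti-IgM, against 7051, 6814 and 8774 in media (-2.21 ± 0.33, adjusted p = 0.000289), and Sesn1, a brake on mTORC1, had 2729, 1920 and 3742 with anti-IgM, against 8354, 8228 and 10600 in media (-1.71 ± 0.21). The 3 anti-IgM values of Ccng2 were nearly equal, and no media array came near them.

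**Figure D4:**
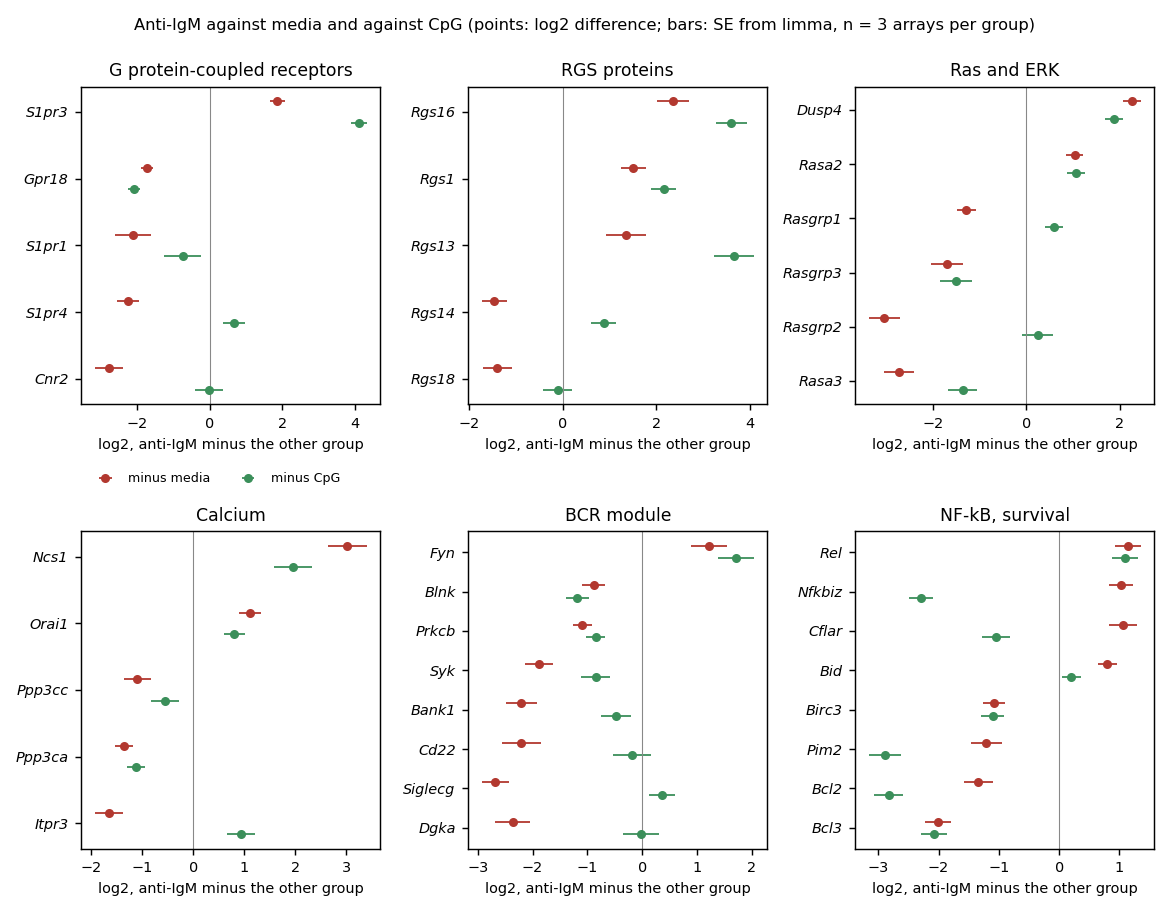
Log2 difference of anti-IgM from media (red) and from CpG (green) for named signalling genes in 6 panels, each point with its SE from limma (3 arrays per group, both differences sharing the anti-IgM arrays). Points right of 0 are higher with anti-IgM. S1pr3, Rgs16 and Rgs13 lie farther from CpG (4.11, 3.61 and 3.65) than from media, and Bcl2 and Pim2 lie lower than with either.

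Receptors that place B cells in lymphoid tissue split. Of 15 tested, 3 rose, 7 fell and 5 were not called, with 4 falls without anti-IgM replicate 3. S1pr3, a sphingosine 1-phosphate receptor of marginal zone B cells, had 10172, 11454 and 10455 with anti-IgM, against 2952, 2479 and 3271 in media (1.86 ± 0.21, adjusted p = 3.79e-05). It was higher than with CpG by 4.11 (adjusted p = 2.24e-08) and than with PL2-3 by 1.66 (adjusted p = 0.0011), but not over PL2-3 when probe sets were averaged (0.91, adjusted p = 0.405). S1pr4, of the same family, had 1767, 1836 and 2423 with anti-IgM, against 8892, 8835 and 11854 in media (-2.25 ± 0.30). S1pr1, which lets lymphocytes leave lymphoid organs, had 597, 1295 and 113 with anti-IgM, against 2827, 3862 and 1169 in media, groups that overlap between kits (-2.12 ± 0.51, adjusted p = 0.00758, and 0.0615 without anti-IgM replicate 3). Within one receptor family, then, a member was higher and 2 were lower. Gpr18 had 4140, 3264 and 4241 with anti-IgM, against 12933, 11925 and 13968 in media (-1.72 ± 0.16), and was lower than with CpG by a difference of -2.09 (adjusted p = 4.96e-07).

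Proteins that shorten G protein signals, the RGS family, and G protein subunits had 3 of 15 members measured higher and 6 lower, against 4 higher and 3 lower after the median shift. Rgs16 had 2509, 3243 and 1836 with anti-IgM, against 452, 375 and 433 in media (2.36 ± 0.34, other probe sets at 0.61 and 3.30). Rgs1 had 15224, 20919 and 14411 with anti-IgM, against 7182, 7965 and 3381 in media (1.51 ± 0.27), and exceeded CpG by 2.16 (adjusted p = 6.44e-05). Rgs14, which also binds Rap, had 1422, 1611 and 1609 with anti-IgM, against 3970, 3685 and 5782 in media (-1.46 ± 0.27). Each of the 3 kept the groups apart. Rgs13 did not: with 3909, 6712 and 2706 with anti-IgM, against 1244, 875 and 3481 in media, its change was 2.22 in the Enzo arrays and -0.35 in the Ambion pair. Its call (1.36 ± 0.43, adjusted p = 0.0354) ended in 4 of the 6 fits with 1 array left out, with adjusted p of up to 0.166.

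Among integrins and adhesion genes 2 of 20 members measured rose, 10 fell and 8 were not called, with 5 falls without media replicate 3 and 5 after the median shift. The rises numbered 1 without anti-IgM replicate 1 or 2 or any 1 of the media arrays, and 0 with probe sets averaged. Itga4, a chain of the receptor for VCAM1, had 1840, 2791 and 1499 with anti-IgM, against 6963, 8069 and 6375 in media (-1.81 ± 0.22). Selplg, the ligand of P-selectin, had 5149, 4175 and 3168 with anti-IgM, against 11156, 11528 and 11942 in media (-1.48 ± 0.22). Pecam1 had 169, 360 and 515 with anti-IgM, against 2140, 1948 and 955 in media (-2.07 ± 0.34, with -2.70 in the Enzo arrays and -0.80 in the Ambion pair). In all 3 each anti-IgM array was below each media array. Itgav, of the vitronectin receptor, rose on its brightest probe set, at 33378, 37588 and 29874 with anti-IgM, against 13427, 9241 and 11982 in media (1.55 ± 0.18), while its other probe sets gave -1.02 and 1.45, and with probe sets averaged it was not called (0.31, adjusted p = 0.412).

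NF-kB and survival genes included several that differed from CpG as well as from media. Of 17 NF-kB and IkB genes, 4 rose, 3 fell and 10 were not called, with 1 fall after the median shift. Rel, the subunit that B cells need for growth, had 7212, 7373 and 6830 with anti-IgM, against 4603, 3706 and 1907 in media (1.14 ± 0.22). Bcl3, a nuclear IkB protein, had 1393, 1740 and 1084 with anti-IgM, against 5449, 7840 and 4532 in media (-2.01 ± 0.21, adjusted p = 2.38e-05). Another nuclear IkB protein, Nfkbiz, had 12713, 12763 and 8804 with anti-IgM, against 7182, 5745 and 4013 in media (1.03 ± 0.20), a call that ended when probe sets were averaged (0.80, adjusted p = 0.178). Against CpG, Rel was higher (1.09, adjusted p = 0.00451), while Bcl3 (-2.08, adjusted p = 8.45e-06) and Nfkbiz (-2.29, adjusted p = 1.88e-06) were lower. Over the list, 1 of 17 members was higher and 5 were lower than with CpG.

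In the BCL2 family and related death genes 3 of 21 members measured rose, 5 fell and 13 were not called. The survival gene Bcl2 had 580, 640 and 830 with anti-IgM, against 2108, 1997 and 1453 in media (-1.34 ± 0.24, adjusted p = 0.000982), and other probe sets gave -1.08 to -0.23. The survival kinase gene Pim2 had 2361, 2327 and 1794 with anti-IgM, against 6106, 6388 and 3290 in media (-1.21 ± 0.26), and Birc3, an inhibitor of apoptosis, had 21093, 13716 and 18340 with anti-IgM, against 41090, 43558 and 28194 in media (-1.08 ± 0.19). These 3 were lower than with CpG as well, by differences of -2.83 (adjusted p = 1.17e-06), -2.89 (adjusted p = 2.39e-06) and -1.10 (adjusted p = 0.00139). Cflar, which blocks caspase 8, had 8379, 8406 and 6367 with anti-IgM, against 3795, 4338 and 2883 in media (1.06 ± 0.23, other probe sets at 0.09 to 1.44). Bid, which promotes death at mitochondria, had 6527, 6840 and 9754 with anti-IgM, against 3640, 3858 and 5754 in media (0.80 ± 0.15). The rises thus held a gene that blocks death and one that promotes it. The falls numbered 3 without anti-IgM replicate 2 and 3 after the median shift.

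Genes of MHC class II and peptide loading were lower where they were called. Of 11 tested, 6 fell and 5 were not called, with a median of -0.81, and 4 fell after the median shift. The 6 were H2-DMa, H2-DMb2, H2-Oa, H2-Ob, Ciita and Ctss. The listed chains of the molecules that present peptide, H2-Aa, H2-Ab1 and H2-Eb1, were not among them. The chains of H2-O, which inhibits peptide loading, were H2-Ob at 4570, 7221 and 6296 with anti-IgM, against 20443, 22121 and 21814 in media (-1.84 ± 0.25), and H2-Oa at 2442, 2244 and 3316 with anti-IgM, against 6689, 6854 and 11594 in media (-1.60 ± 0.24). H2-DMa, a chain of the loading catalyst itself, had 3573, 3849 and 6444 with anti-IgM, against 10375, 10145 and 14975 in media (-1.37 ± 0.29). Catalyst and inhibitor fell together in these arrays. Ctss, the protease that trims the invariant chain, had 39392, 34374 and 34430 with anti-IgM, against 57218, 56784 and 58372 in media (-0.67 ± 0.14), a call that ended after the median shift (-0.43, adjusted p = 0.17). Myeloid cells, whose summed markers were lower with anti-IgM, also express these genes, a part that was not tested. Of 21 genes of T cell help and costimulation, 7 rose, 2 fell and 12 were not called, with 3 or 4 rises in 5 of the 6 fits with 1 array left out (without anti-IgM replicate 1, 2 or 3 or media replicate 1 or 3).

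Among secreted factors, 5 of 22 rose, 3 fell and 14 were not called. Il12a, the p35 chain of interleukin 12, had 750, 644 and 562 with anti-IgM, against 4104, 4391 and 1154 in media (-1.97 ± 0.30, with -2.49 in the Enzo arrays and -0.95 in the Ambion pair). Il16 had 1146, 1131 and 2216 with anti-IgM, against 9923, 8206 and 15725 in media (-2.87 ± 0.38), while its other probe sets gave -2.41 and 0.37. Both were lower on every anti-IgM array.

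Transcription factors of B cell identity were mostly lower, 13 of 23 members measured against 1 that rose and 9 not called, with a median of -0.86 and 7 falls after the median shift. The exception was Irf4, needed for plasma cells, at 38804, 35038 and 24895 with anti-IgM, against 12169, 11788 and 4397 in media (1.90 ± 0.25, adjusted p = 0.000112). Pou2af1, the B cell coactivator of octamer factors, had 11985, 16440 and 15546 with anti-IgM, against 47173, 51968 and 53015 in media (-1.80 ± 0.17, adjusted p = 1.03e-05). Bcl6, the repressor of germinal centre B cells, had 1692, 1298 and 2955 with anti-IgM, against 3997, 4112 and 7287 in media (-1.36 ± 0.22), and was lower than with CpG by a difference of -1.34 (adjusted p = 0.000886). The groups did not overlap in any of the 3. Bcl11a, of early B cell development, fell by 1.34 ± 0.27, and Id3, an inhibitor of E proteins, fell by 1.48 ± 0.33 on the log2 scale. Several genes stand in 2 of the lists described here and are counted in both, among them Foxo1, Bcl6, Irf4, Sesn1, Cdkn1b, Rbl2, S1pr1 and Itgb7. The counts of those lists are thus not separate.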

How the data were processed

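RNA of AM-14 B cells was measured on 15 Affymetrix mouse arrays, 3 for each of 5 groups. The deposited table holds probe set signals on a linear intensity scale, made with MAS5 per the submitters' processing notes. The trimmed mean of each array (2% left out at each end) is 1499 or 1500, so the arrays were scaled to a common level before they were deposited, and a shift of most genes in 1 direction is reduced by it. Replicates 1 and 2 were labelled with the Enzo and replicate 3 with the Ambion kit, per the labels' protocols.

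Of 45037 probe sets besides 64 controls, 34945 were paired with 1 gene symbol by the platform annotation, 932 with several and 9160 with none. Of the 34945, 34741 were matched by gene identifier to RefSeq (GRCm38.p6) for current symbols. The probe set with the highest mean signal stood for a gene (18193 genes), and those that reached an array's median on 3 or more of 15 arrays were tested (13159). Log2 of the deposited intensity plus 75.1, the 20th percentile, was fitted with limma 3.58.1 in R 4.3.3 (lmFit, eBayes with a trend), with terms for the 5 groups and the labelling kit and 9 residual degrees of freedom, and p-values were adjusted by Benjamini and Hochberg's method. Precision is limited by the number of arrays.

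Named genes are, by size, the top 20 rises and top 20 falls of the called genes whose sign was shared by all 3 pairs of equal number, with no other probe set of the gene going the opposite way, and up to 6 called members of each of 35 gene lists, 1 of which is not reported here. The members and lists were chosen with earlier results of these data known. Deviations of same-numbered arrays of the 2 groups had correlations of 0.121, 0.209 and 0.342 over genes. With different numbers the correlations were 0.0729 and 0.176 within the Enzo kit and -0.293 to -0.143 across kits. These values do not separate a pairing by number from the shared kit. Equal numbers were still taken as pairs, to pick named genes and in the replicate block. Alternatives were the replicate block, quantile normalization, a shift to the same median, no or a larger pseudocount, other filters, no labelling term, the Enzo arrays alone, eBayes without a trend, probe sets averaged, fewer groups in the fit, and each array left out. Figures were drawn with matplotlib 3.10.9.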

Additional observations from a re-analysis of the deposited data

Results flagged for a closer look

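Probe sets with no gene symbol in the platform annotation took no part in the comparisons. Of 4170 of them that passed the filter, 116 were called in limma's fit of anti-IgM against media, 50 higher and 66 lower with anti-IgM. Here p was adjusted over these 4170 probe sets and not over the 13159 genes. The calls were a smaller share than the 19.5% of genes tested (10.1% higher and 9.32% lower). The largest rise was 2.84 ± 0.27 on the log2 scale (SE), with a mean signal of 5405 with anti-IgM against 712 in media (n = 3 arrays each), and the largest fall was -3.27 ± 0.30, with 1893 with anti-IgM against 18818 in media. Their genes are not named here.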

How the results depend on the processing

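The number of genes called (2561) moved by more than 1.5 times with the Enzo arrays alone (1427), without anti-IgM replicate 3 (1655) and without media replicate 3 (1651). It ranged from 1651 to 2166 when 1 array was left out. The genes higher (1335) numbered 770 with the Enzo arrays alone and 875 to 1194 with 1 array left out. The genes lower (1226) numbered 657 and 705 to 972 in these fits, and 486 after arrays were shifted to the same median. With the replicate block, 2592 genes were called, 1354 higher and 1238 lower, 2499 of them also called without it. Of the 40 genes named by size, 13 differed from CpG, and 12 with the block. The count was 9 or 10 with 1 anti-IgM or CpG array left out, 10 after the median shift and 16 without the anti-IgM+CpG arrays. The 2 that differed from PL2-3 became 1 with quantile normalization, the median shift, no pseudocount, no filter, the Enzo arrays alone or averaged probe sets. They became 0 in limma without the labelling term or without the trend, with 5 and 7 at an unadjusted p under 0.05, and 0 to 0 with 1 array left out, with 4 to 7 at that unadjusted p. No named gene changed direction against media in any of these alternatives. Of the 40, 39 or 40 kept their call when 1 array was left out, and of 171 called members of the gene lists 139 to 159 did. With probe sets averaged, changes against media shrank by more than 1.5 times but stayed called for Il15ra (1.76), Ncs1 (1.15), Lmnb2 (1.81), Mxd4 (-1.80), S1pr3 (1.10), Bcl2 (-0.73) and Il16 (-1.38), among others. Signals near the background limit the fold changes of genes dim in 1 group.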

Other observations

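Among the 4 lists given here, the share of members called was 13.0% for lysosome and autophagy, 25% for DNA methylation and Polycomb, 20% for p53 targets and 8.33% for HIF1 targets, beside 19.5% of all genes. Of 23 lysosome and autophagy genes, 1 rose, 2 fell and 20 were not called, with 1 fall without anti-IgM replicate 3 or media replicate 3 and 2 rises without media replicate 1 or media replicate 3. The member that rose was Gla, the lysosomal alpha-galactosidase, with signals of 5537, 6362 and 3151 with anti-IgM, against 1288, 1388 and 1270 in media (1.81 ± 0.35, adjusted p = 0.00188, limma). With probe sets averaged it was not called (0.69, adjusted p = 0.308). Ctsh, a cathepsin, had 7083, 6250 and 13078 with anti-IgM, against 16820, 16471 and 26371 in media (-1.21 ± 0.22). The groups did not overlap in either gene. In DNA methylation and Polycomb genes, 2 of 20 rose and 3 fell. The falls ended without anti-IgM replicate 1 and after the median shift, and 1 was left without anti-IgM replicate 2, media replicate 2 or media replicate 3 and with the replicate block. The rises numbered 1 without anti-IgM replicate 1 or 2 or media replicate 2 or 3. Dnmt3b, a de novo methyltransferase, had 5208, 4535 and 4601 with anti-IgM, against 2578, 2908 and 1671 in media (1.01 ± 0.19).

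Among 15 targets of p53, 1 rose, 2 fell and 12 were not called. The falls numbered 1 without anti-IgM replicate 2, anti-IgM replicate 3 or media replicate 3, and 5 in a fit of the anti-IgM and media arrays alone. Aen, a nuclease of apoptosis, had 7937, 7504 and 11779 with anti-IgM, against 4400, 4643 and 3720 in media (1.06 ± 0.21), while Btg2, which restrains proliferation, had 11367, 12855 and 6829 with anti-IgM, against 25237, 26611 and 15991 in media (-1.14 ± 0.18). Each was apart within each kit. Of 12 targets of HIF1, Adm, which encodes the vessel-dilating peptide adrenomedullin, rose, at 4517, 4607 and 2463 with anti-IgM, against 1300, 1063 and 571 in media (1.92 ± 0.43), and 11 were not called.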
